A study of Mus musculus with 25 samples.

Results

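The 10 transcripts described here are grouped as T cell and natural killer (NK) cell transcripts. They were followed in RNA from 5XFAD mice given anti-PD-1, an IgG control or no treatment. The name does not mean that each is particular to these cells. They are Cd3d, Cd3e and Cd3g, Cd8a, the granule genes Nkg7, Gzma and Gzmb, the receptors Klrd1 and Klrk1, and the chemokine Ccl5. They were chosen by symbol, and all 10 were found among the 19762 genes of each deposited count table and in each deposited table of scaled values. In short, the transcripts other than Ccl5 were present at low levels in the CD45high gate of sorted brain myeloid cells. Ccl5 had the most counts of the 10 there. In the CD45low gate all but Klrd1 and Ccl5 had 0 to 3 counts per library. In whole choroid plexus the transcripts were close to the limit of detection.

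T cells recognise antigen through a receptor whose signal is passed inward by the CD3 chains. The product of Cd8a is part of the co-receptor that binds MHC class I. Cytotoxic T cells and NK cells kill target cells by releasing granules that carry granzymes, which are serine proteases. NK cells and activated CD8 T cells of mice also carry lectin-like receptors such as NKG2D, made from Klrk1, and CD94, made from Klrd1, which read stress-induced or MHC class I-like ligands. CCL5 is a chemokine that draws leukocytes through receptors such as CCR1. PD-1 is an inhibitory receptor of activated T cells, and the healthy brain parenchyma holds few lymphocytes.

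The 5XFAD strain carries human transgenes with familial Alzheimer's disease mutations, driven by the Thy1 promoter in neurons, and this genotype was shared by all 25 samples. Myeloid cells were sorted from the brain of anti-PD-1-treated mice as CD11b-positive with low CD45 (3 libraries labelled D7 and 3 labelled D14) or with high CD45 (3 at D7 and 2 at D14). No sorted group from IgG-treated or untreated mice was analysed here, so an effect of the antibody on the sorted cells cannot be read from these libraries. Whole choroid plexus, the secretory epithelium of the ventricles with its stroma, came from mice given anti-PD-1 (n = 5), an IgG control (n = 5) or nothing (n = 4). The labels do not say what the D number counts from, the age of the mice, or whether each library came from 1 animal or a pool. The p-values therefore rest on library-to-library spread that could be technical.

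Counts in the sorted libraries totalled 343439 to 974777 and in the choroid plexus 931461 to 1840072. In sorted cells the gate labels went with their markers: the microglial genes P2ry12 and Tmem119 were higher in CD45low, and Mmp8 of neutrophils and Ccr2 of monocytes in CD45high, at both D labels. Ptprc, which encodes CD45, was higher in CD45high by a log2 fold change of 1.62 ± 0.184 (SE) at D7 and 1.40 ± 0.197 at D14. The sorted cells were deposited in a pair of tables that differ. Counts made up 75.1% of the reads that could be recovered from the scaled table, and for the median gene with enough reads they made up 92.0%.

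Among the 10 transcripts that difference was uneven. Gzma had 0 counts in all 11 sorted libraries and 107 recovered reads. Cd3d had 14 counts and 68 reads, and Nkg7 had 63 counts and 170 reads. Cd8a (77 and 79), Klrk1 (137 and 139) and Gzmb (56 and 56) were nearly or fully equal in both tables, and Cd3e, Cd3g, Klrd1 and Ccl5 lay between, with 32 and 35, 20 and 31, 60 and 86, and 627 and 896. The sources used here do not say which step of the authors' processing made the tables differ. Values below are CPM, counts scaled to a library's total with TMM factors, or, where stated, RPM, the same for recovered reads. In the choroid plexus both tables gave the same counts for these genes.

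**Figure D1:**
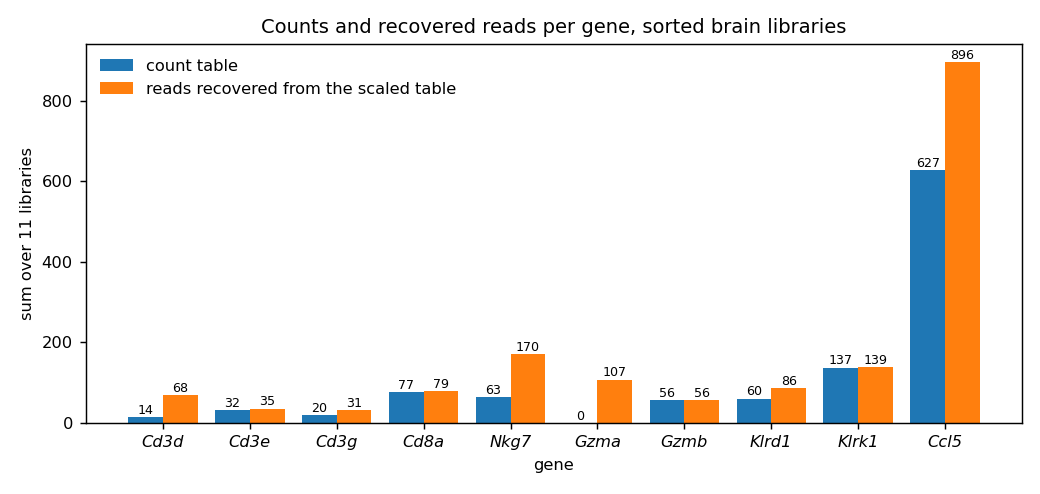
Sum over the 11 sorted libraries of counts (blue) and of reads recovered from the scaled table (orange), for each gene on the x axis. Gzma has 0 counts against 107 reads, while Gzmb has 56 in both.

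Promoter sequence is shown for the 4 genes whose 250 bases before the start hold the core letters of a Runx site. They are shown because they hold these letters. All 8 genes with a promoter here were present in the CD45high gate, so presence there does not set the 4 apart. Runx3 was among the genes of most similar pattern, as were many others (given further on). That pattern was the mean of the genes tested in counts, and Gzma was not among them. Whether Runx3 acts on these promoters was not tested. Of the 10 genes, 8 had a promoter in the RefSeq table of build GRCm38.p6, and Klrd1 and Ccl5 did not. The letters TGTGGT were searched on both strands for Runx and GGTGTG for T-box factors. The sequences run 5′ to 3′ on the gene's strand, with the matches in capitals: in Nkg7 the capitals mark a Runx match on the opposite strand and a T-box match, in Gzma a Runx match on the opposite strand, in Gzmb a pair of Runx matches and in Klrk1 a Runx match.
Nkg7 (chr7:43436888-43437137, plus strand): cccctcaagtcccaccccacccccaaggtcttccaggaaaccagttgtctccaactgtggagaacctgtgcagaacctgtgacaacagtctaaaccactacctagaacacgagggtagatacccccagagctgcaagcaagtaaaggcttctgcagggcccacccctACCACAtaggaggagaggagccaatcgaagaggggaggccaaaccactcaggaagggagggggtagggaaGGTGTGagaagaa
Gzma (chr13:113100982-113101231, minus strand): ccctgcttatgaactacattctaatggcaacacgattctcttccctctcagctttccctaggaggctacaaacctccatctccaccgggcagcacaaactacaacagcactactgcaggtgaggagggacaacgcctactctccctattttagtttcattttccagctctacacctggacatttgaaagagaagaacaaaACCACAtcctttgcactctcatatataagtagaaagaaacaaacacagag
Gzmb (chr14:56262335-56262584, minus strand): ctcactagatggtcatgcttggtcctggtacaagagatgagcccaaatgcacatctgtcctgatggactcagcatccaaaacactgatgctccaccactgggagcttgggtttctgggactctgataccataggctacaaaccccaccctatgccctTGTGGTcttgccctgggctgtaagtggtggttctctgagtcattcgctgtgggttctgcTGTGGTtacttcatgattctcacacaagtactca
Klrk1 (chr6:129623865-129624114, minus strand): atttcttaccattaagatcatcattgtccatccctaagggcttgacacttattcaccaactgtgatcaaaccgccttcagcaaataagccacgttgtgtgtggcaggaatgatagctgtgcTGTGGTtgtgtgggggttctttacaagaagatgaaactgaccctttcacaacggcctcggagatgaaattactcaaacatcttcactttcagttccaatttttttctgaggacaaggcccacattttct

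The Runx letters were present in 4 of the 8 promoters and in 14.05% of all 32851 promoters of the table. The other 4 of the 8, those of Cd3d, Cd3e, Cd3g and Cd8a, lacked the Runx letters. These genes were also called higher in CD45high at both D labels in recovered reads. The T-box letters were present in 2 of the 8, Nkg7 and Cd3d, and in 16.28% of all promoters. Nkg7 alone among the 8 held both, as did 3.674% of all promoters. Several of the genes are neighbours in the RefSeq annotation: Cd3g, Cd3d and Cd3e lie next to each other, Klrd1 lies beside Klrk1, Cd8a beside Cd8b1, Gzma beside Gzmk and Gzmb beside Gzmc.

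The first comparison asked how the 2 gates of sorted cells differ. All 5 of the 10 genes that passed the filter on low counts (Cd8a, Nkg7, Gzmb, Klrk1 and Ccl5) were higher in CD45high than in CD45low at D7 and at D14. Over all 9058 genes tested, 22.3% were called higher at D7 and 20.5% at D14. The other 5 (Cd3d, Cd3e, Cd3g, Gzma and Klrd1) were below the filter in the count table and got no test there. In recovered reads all 10 passed the filter, and 9 of them, all but Klrd1, were called higher at both D labels, where 23.6% of 10390 genes were called higher at D7 and 22.1% at D14. A gene can pass the filter through the gate in which it is high, so these counts describe the genes and are no separate support. In such bulk samples, more cells of a type and more RNA per cell cannot be told apart.

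**Figure D2:**
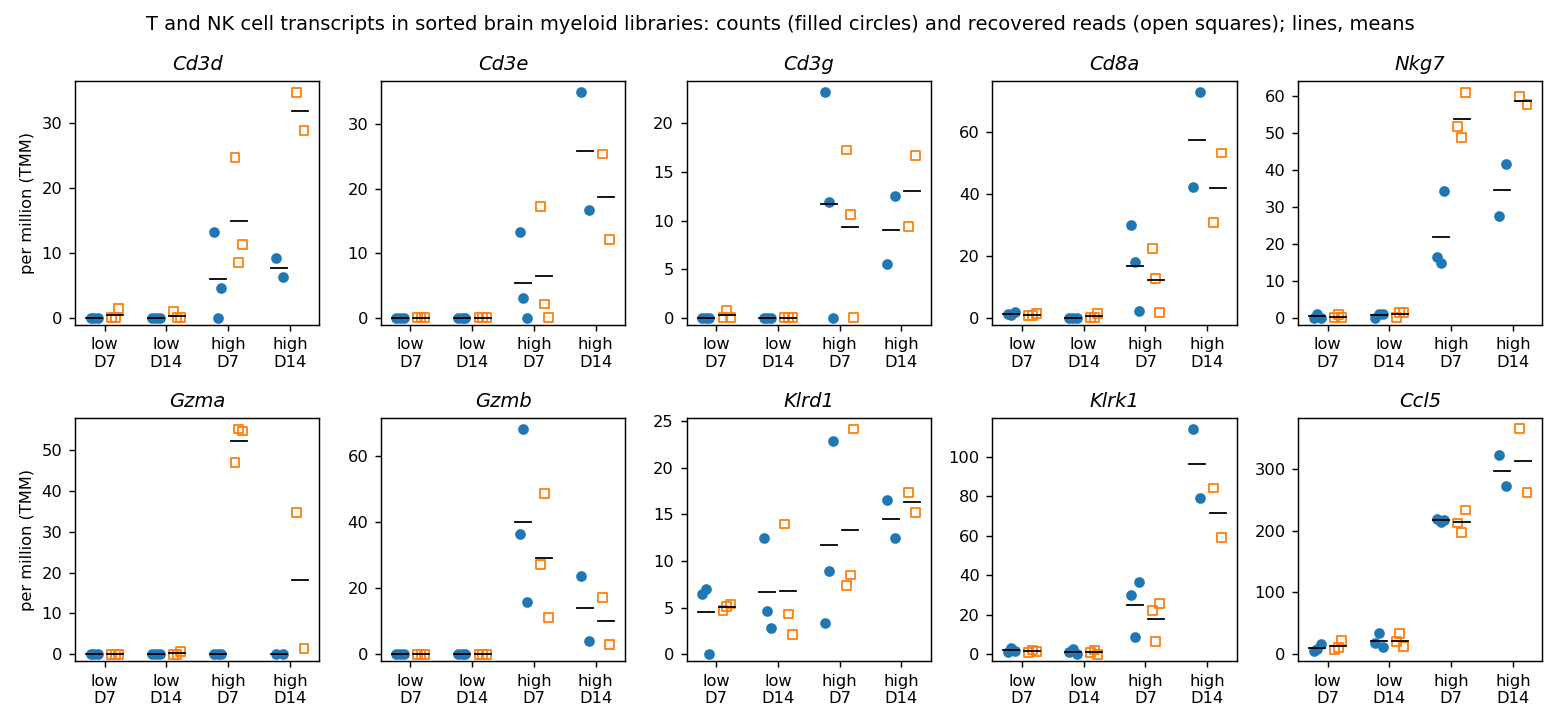
Level of each gene per library (points) in the 4 sorted groups, as CPM (filled circles) and as RPM of recovered reads (open squares), with the group mean as a line; the y axis starts at 0 and differs between panels. The CD45low libraries lie at or near 0 for all genes but Klrd1 and Ccl5.

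The CD3 chains were not counted in any CD45low library in the count table. Cd3e, the epsilon chain (NM_007648), had 4, 1 and 0 counts in the 3 CD45high D7 libraries and 19 and 8 in the D14 pair. That is 5.41 ± 6.96 CPM (SD, n = 3) and 25.8 ± 12.9 CPM (n = 2), against a limit of 3 counts over the group of 1.21 CPM in CD45low at D7 and 1.01 CPM at D14. The groups overlapped at D7, where a CD45high library was also at 0, and did not overlap at D14.

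Cd3g, the gamma chain (NM_009850), had 7, 4 and 0 counts in CD45high at D7 and 3 and 6 at D14. Cd3d, the delta chain (NM_013487), had 4, 0 and 2, then 5 and 3. Summed over the libraries of a group, CD45high was at least 26-fold higher than CD45low at D14 for Cd3e, at least 8.65-fold for Cd3g and at least 7.69-fold for Cd3d, with CD45low taken at the limit of 3 counts.

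In recovered reads the CD3 chains could be tested. Cd3d had 10, 4 and 7 reads in CD45high at D7 and 26 and 19 at D14, against 1 read in 1 library of each CD45low group. Every CD45high library was above every CD45low library. The ratio was 47.4 at D7 (95% interval 7.62 to 1958.9, counting error only) and 123.7 at D14 (21.1 to 4994.4). The adjusted p of edgeR's quasi-likelihood test was 0.000772 at D7 (log2 fold change 5.05 ± 1.06) and 5.77e-05 at D14 (6.33 ± 0.997). Cd3g was called at D7 (adjusted p = 0.0187) and D14 (0.0031), and Cd3e at D7 (0.0299) and D14 (0.00239), both by edgeR. The D7 calls of Cd3e and Cd3g rested on few reads. Without CD45low D7 replicate 1 the adjusted p was 0.0662 for Cd3e and 0.0635 for Cd3g, without CD45low D7 replicate 2 it was 0.0654 for Cd3e, and without CD45high D7 replicate 2 it was 0.055 for Cd3g.

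Cd8a, the alpha chain of the CD8 co-receptor (NM_001081110), had 1 count in each CD45low D7 library and 0 in each CD45low D14 library. In CD45high it had 9, 6 and 1 counts at D7 and 23 and 35 at D14. The means were 1.31 ± 0.472 CPM in CD45low at D7 (SD, n = 3), 16.7 ± 13.8 in CD45high at D7 (n = 3) and 57.5 ± 21.6 in CD45high at D14 (n = 2). The groups did not overlap at either D label, although CD45high D7 replicate 3, at 2.29 CPM, lay close to the highest CD45low library at 1.85 CPM.

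At D7 the ratio of Cd8a between the gates was 12.3 (95% counting interval 3.51 to 65.7), with a log2 fold change of 3.50 ± 0.970 (edgeR adjusted p = 0.00738). This call was lost without CD45high D7 replicate 1, where the log2 fold change was 2.77 and the adjusted p was 0.0539. At D14 CD45high was at least 55.8-fold higher (edgeR adjusted p = 1.58e-05). Cd8b1, the partner chain of CD8, had 6 counts in CD45high at D7, all in 1 library, and 36 at D14, against 2 in each CD45low group. It was called at D14 (log2 fold change 5.38 ± 1.08, edgeR adjusted p = 0.000601) and not at D7 (2.62 ± 1.37, adjusted p = 0.134).

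The granule genes were higher in CD45high at both D labels. Nkg7, a membrane protein of cytotoxic granules (NM_024253), had 0, 1 and 0 counts in CD45low at D7 and 0, 1 and 1 at D14, against 5, 5 and 15 in CD45high at D7 and 15 and 20 at D14. The CD45high means were 21.9 ± 10.8 CPM (n = 3) and 34.6 ± 9.91 CPM (n = 2). The ratio of CD45high to CD45low was 57.5 at D7 (95% interval 9.41 to 2360.4, counting error only) and 50.5 at D14 (13.0 to 433.1). The log2 fold changes were 5.28 ± 0.974 (edgeR adjusted p = 0.000198) and 5.34 ± 0.873 (7.3e-05).

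Gzmb, which encodes granzyme B (NM_013542), had 0 counts in all 6 CD45low libraries. In CD45high it had 11, 23 and 7 counts at D7 and 13 and 2 at D14, or 40.3 ± 26.4 CPM and 14 ± 14 CPM. CD45high was at least 31.4-fold higher at D7 (edgeR adjusted p = 0.000211) and at least 14.4-fold higher at D14 (0.00322). The D14 call rested on CD45high D14 replicate 1: without it, with the remaining library assumed to vary like the other groups, the adjusted p was 0.125.

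Gzma, which encodes granzyme A (NM_010370), could be seen in recovered reads alone. It had 19, 26 and 34 reads in CD45high at D7 and 26 and 1 at D14, against 0 in 5 CD45low libraries and 1 in CD45low D14 replicate 3. The CD45high D7 libraries lay close together at 46.9, 55.2 and 54.7 RPM, whereas the D14 libraries stood at 34.7 and 1.52 RPM. At D7 CD45high was at least 59.4-fold higher (edgeR adjusted p = 2.54e-05). At D14 the ratio was 74.2 (95% counting interval 12.2 to 3039.6; edgeR adjusted p = 0.00107), and without CD45high D14 replicate 1 the adjusted p was 0.448. RefSeq places Gzma over part of Cdc20b, and in the same annotation Ccl5 overlaps Gm32650. Reads of overlapping genes may be split between them.

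Of the receptors, Klrk1 differed between the gates and Klrd1 was not called. Klrk1 (NM_001083322), which encodes the activating receptor NKG2D, had 1, 3 and 1 counts in CD45low at D7 and 1, 3 and 0 at D14. In CD45high it had 9, 3 and 16 counts at D7 and 62 and 38 at D14. CD45high stood at 25.1 ± 14.4 CPM at D7 and 96.5 ± 24.7 CPM at D14, and CD45low at 1.98 ± 0.976 and 1.34 ± 1.39 CPM. The groups did not overlap. The log2 fold changes were 3.55 ± 0.734 at D7 (edgeR adjusted p = 0.000606) and 5.98 ± 0.688 at D14 (1.17e-06).

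Klrd1 (NM_010654), which encodes CD94, was the gene of the 10 with the smallest ratio between the gates in recovered reads, 2.92 at D7 (95% counting interval 1.48 to 5.85) and 2.64 at D14 (1.42 to 4.87). It had 6, 7 and 0 counts in CD45low at D7 and 10, 5 and 3 at D14, and 1, 3 and 10, then 9 and 6, in CD45high. In recovered reads CD45low held 5.08 RPM on average at D7 and 6.80 at D14, and CD45high 13.3 and 16.3, without overlap between the gates at either D label. The log2 fold changes in reads were 1.44 ± 0.734 (edgeR adjusted p = 0.12) and 1.30 ± 0.740 (0.179), and the D14 difference was called without CD45low D14 replicate 1 (2.29, adjusted p = 0.0379). Its CD94 partners Klrc1 and Klrc2, which encode NKG2 receptors, were at 0 in recovered reads in CD45low and in CD45high at D7. Klrc1 had 2 reads in CD45high at D14.

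Ccl5 (NM_013653) had the most counts of the 10 in the sorted cells and was found in every sorted library. That includes the CD45low libraries, where the CD3 chains had 0 counts. CD45low had 5, 8 and 9 counts at D7 and 15, 38 and 13 at D14, and CD45high 66, 72 and 95, then 175 and 131. Scaled, the CD45high D7 libraries lay close together at 218.8, 213.9 and 217.3 CPM, and the D14 pair stood at 321.6 and 272.4 CPM. CD45low stood at 10.01 ± 5.92 CPM at D7 and 22.0 ± 11.9 CPM at D14. The ratio between the gates was 24.4 at D7 (95% counting interval 15.7 to 39.6) and 13.4 at D14 (10.2 to 17.7), with log2 fold changes of 4.54 ± 0.381 (edgeR adjusted p = 1.72e-08) and 3.73 ± 0.340 (5.42e-08). Whether the gate difference of Ccl5 changed with D was tested directly, and it did not pass (log2 difference -0.81 ± 0.534, edgeR adjusted p = 0.861).

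Counting groups that do not overlap, every CD45high library was above every CD45low library for 5 of the 10 genes at D7 and 9 of 10 at D14. Among all tested genes 25.5% and 31.0% were arranged in that way. The 10 include genes below the filter, whereas these shares are over the genes that passed it. In recovered reads it was 8 and 10 of 10, against 23.7% and 29.7% of 12027 genes. Those are the genes above a floor on summed reads, a wider set than the 10390 tested.

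The next comparison set D14 beside D7 within a gate. None of the 5 tested genes was called in CD45high, where 0.011% of all genes, a single gene, were called by edgeR and 951 had an unadjusted p under 0.05. Klrk1 had the lowest p of the 5, with a log2 fold change of 1.91 ± 0.546 (unadjusted p = 0.00235, edgeR adjusted p = 0.215). Both D14 libraries lay above all D7 libraries for Klrk1, Cd8a, Cd3e and Ccl5, which makes 4 of the 10 genes against 13.7% of all tested genes. Cd3e was below the filter and is not among those tested genes. In recovered reads this held for Cd3d, Cd8a, Klrk1 and Ccl5 (13.0% of 12027 genes), while Cd3e overlapped. Gzma in reads lay the other way without overlap, with both D14 libraries below all D7 libraries. That makes 5 of the 10 genes without overlap in either direction, against 25.6% of those genes. Cd8a had a log2 fold change of 1.86 ± 0.717 (edgeR adjusted p = 0.39) and Ccl5 of 0.46 ± 0.308 (0.625).

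The granzyme means were lower at D14. Gzmb had a log2 fold change of -1.46 ± 0.861 from D7 to D14 in CD45high (edgeR adjusted p = 0.573) and Gzma in recovered reads of -1.49 ± 0.746 (0.49). In recovered reads none of the 10 genes was called, beside 0.0481% of all genes. In CD45low no tested gene of the 10 was called either (0.0994% of all genes). Ccl5 there had a log2 fold change of 1.27 ± 0.435 (unadjusted p = 0.00878, edgeR adjusted p = 0.442). For a change of the gate difference with D, edgeR called 0 genes of the whole table (0.0%) and DESeq2 0, although 542 had an unadjusted p under 0.05 in edgeR, and Klrk1 had 2.43 ± 1.22 (adjusted p = 0.847).

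The order of the group means was CD45high D14, CD45high D7 and then both CD45low groups for Cd3d, Cd3e, Cd8a, Nkg7, Klrd1, Klrk1 and Ccl5 in CPM, and CD45high D7 before CD45high D14 for Gzmb, for Cd3g in CPM and for Gzma in reads. Among the genes tested, neighbours in these orders that belong to the same gate were not called different by edgeR.

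**Figure D3:**
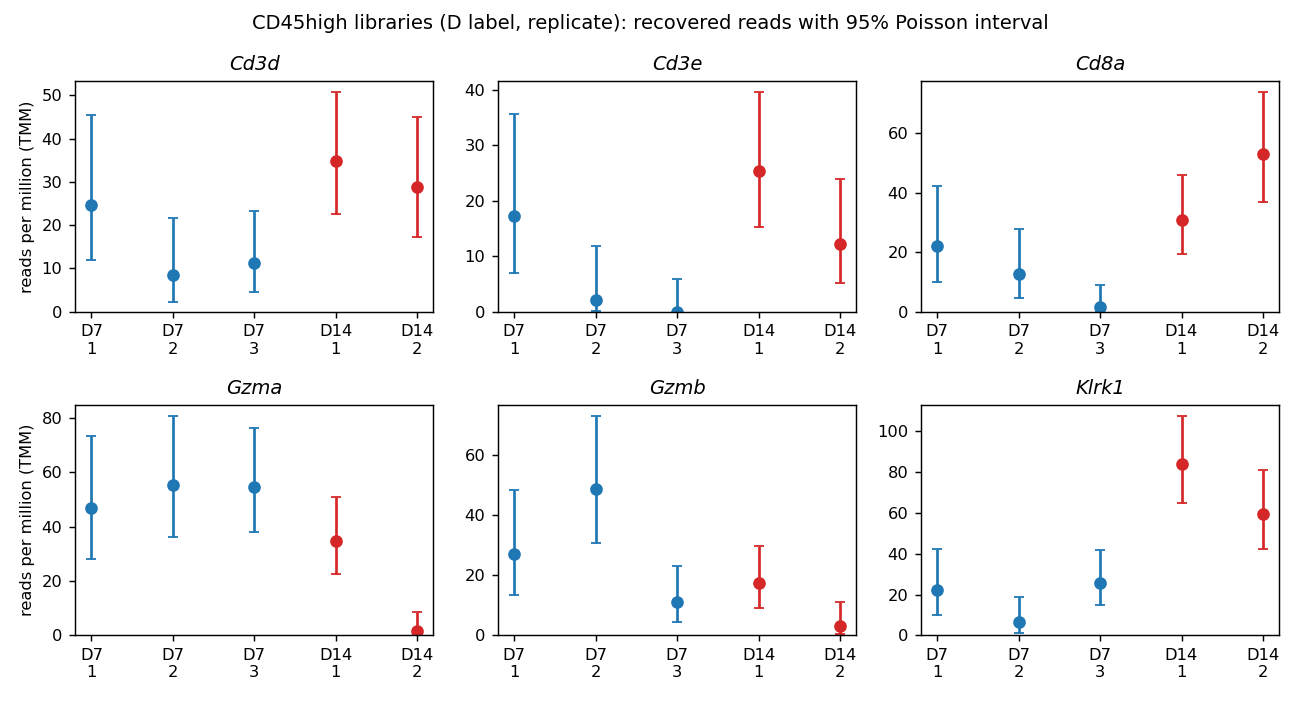
Recovered reads, as RPM, with exact Poisson 95% intervals (counting error only) for 6 genes in the 5 CD45high libraries, with D label and replicate on the x axis (blue D7, red D14). Cd3e is at 0 in D7 replicate 3 and Gzma at 1.52 in D14 replicate 2, while other genes of the 10 are present in the same libraries.

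Within CD45high the 10 transcripts were not highest in the same libraries. D7 replicate 3 had 0 counts of Cd3e and Cd3g and 1 of Cd8a, but the most counts of Nkg7 (15), Klrk1 (16) and Klrd1 (10) among the D7 libraries. Cd3d, the third CD3 chain, was present in that library, with 2 counts and 7 reads against 0 counts and 4 reads in D7 replicate 2. D7 replicate 1 had the most CD3 counts of the D7 libraries, 15 over the 3 chains. D14 replicate 2 had 1 read of Gzma and 2 counts of Gzmb together with 35 counts of Cd8a, the most of all libraries. With few libraries and single counts no test was made of these patterns.

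Lists of genes of the same pathways were set beside the 10, and some of these lists include genes of the 10. Among 22 genes of T cell receptor signalling and the T cell surface, 7 were tested, of which 6 were higher and 1 lower in CD45high at D7, and 5 were higher at D14, while 20.5% and 15.0% of all genes were called lower. The median log2 fold change of the tested genes was 2.45 and 3.92, against -0.08 and -0.04 over all genes tested. Genes of this and the following lists can also pass the filter through the gate in which they are high. The counts and medians of the lists therefore describe the tested genes alone and are no separate support. Lck, the kinase that starts signalling from the receptor, stood at 2.71 ± 1.36 CPM in CD45low and 34.2 ± 36.5 CPM in CD45high at D7 (log2 fold change 3.46 ± 0.836, edgeR adjusted p = 0.00229). Thy1, a surface protein of T cells whose promoter also drives the transgenes, was higher by 2.40 ± 0.447 and 4.23 ± 0.499 on the log2 scale. Cd6, a co-receptor of T cells, was called at both D labels (edgeR adjusted p = 0.0122 and 0.000702). Il7r, the interleukin-7 receptor chain, was the gene of this list that was lower at D7 (-2.26 ± 0.722, edgeR adjusted p = 0.016).

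Of the 7 chains of the T cell receptor complex and its co-receptors, Cd8a and Cd8b1 were tested in the count table, with 1 higher at D7 and both at D14. In recovered reads 5 were tested, with 4 higher at D7 and 5 at D14. Of the 7 chains, 4 (Cd3d, Cd3e, Cd3g and Cd8a) are among the genes described here. Leaving out these 4, 1 chain was tested in reads, and it was called higher at D14 and not at D7. The other chains were sparse. Cd247, the CD3 zeta chain, had 0 counts in CD45low and 9 and 13 in CD45high at D7 and D14. Cd4, the co-receptor of helper T cells, had 3 and 8 counts in CD45low and 9 and 17 in CD45high. Neither passed the filter.

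Of 13 granule and effector genes, 4 were tested and 3 were called higher at both D labels, with a median of 3.74 and 3.52 on the log2 scale, or 3.58 and 2.77 with genes at 0 in a group set to their bound. Besides Nkg7 and Gzmb this was Srgn, the proteoglycan serglycin that packs granules in many leukocytes (2.19 ± 0.223 at D7 and 1.70 ± 0.237 at D14). Without the genes described here, 2 of the list were tested and 1 was higher at both D labels. Their median was 0.70 at D7 and 1.02 at D14. Serpinb9, the intracellular inhibitor of granzyme B, was not called (-0.80 ± 0.722, edgeR adjusted p = 0.398, and 0.34 ± 0.750, 0.769). In recovered reads 7 were tested and 6 called higher at both, among them Ctsw, a cathepsin of cytotoxic cells (3.88 ± 0.727 and 5.96 ± 0.887), and Xcl1, a chemokine of CD8 T and NK cells, with 1 and 0 reads in CD45low and 14 and 12 in CD45high (adjusted p = 0.0186 and 0.0111 by edgeR). Prf1, the pore-forming perforin, had 0 reads in CD45low and 5 and 8 reads in CD45high.

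Of 24 NK cell receptors and adaptors, 5 were tested and all 5 were higher in CD45high at both D labels, with a median of 3.05 and 2.78. These 5 include Klrk1, and without it 4 were tested and 4 were higher, with a median of 2.76 and 2.40. Hcst, the adaptor DAP10 through which NKG2D signals, was higher by 2.46 ± 0.715 (edgeR adjusted p = 0.00886) and 2.02 ± 0.735 (0.038). Tyrobp, the adaptor DAP12, which microglia and other myeloid cells also use, was higher by 1.07 ± 0.195 and 0.70 ± 0.214. Cd244, the receptor 2B4, was higher by 3.91 ± 0.596 and 4.08 ± 0.605, and Klrb1b by 3.05 ± 0.675 and 2.78 ± 0.659. The NK genes Ncr1 and Klrb1c had 0 counts in CD45low, and 11 and 7 counts in CD45high at D7 and 1 and 20 at D14.

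Of 12 transcription factors of T and NK cells, 3 were tested, with a median of 3.71 and 4.30, or 1.62 and 4.30 with genes at 0 in a group set to their bound, and 2 higher at both D labels and 1 lower at D7. Runx3, which directs CD8 T cell and NK cell differentiation, was higher by 3.71 ± 0.485 and 4.30 ± 0.485 (edgeR adjusted p = 4.19e-06 and 9.05e-07), and Gata3 was called at both D labels. Foxp3, the factor of regulatory T cells, was lower at D7 (-0.71 ± 0.274, adjusted p = 0.0424) and stood at 116.3 CPM in CD45low, where Cd3e and Cd3g were at 0. Of 10 cytokine receptors 6 were tested, with 4 higher and 2 lower at D7 and 4 higher and 1 lower at D14, and a median of 4.49 and 4.09, or 3.45 and 3.94 at the bound. Il2rg, the shared gamma chain, was higher by 3.29 ± 0.301 and 3.76 ± 0.315, and Il21r was lower by -2.74 ± 0.292 and -1.67 ± 0.317.

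Of 7 inhibitory receptors and PD-1 ligands, 2 were tested and 1 was lower at both D labels, with a median of -0.89 and -0.33. Pdcd1, which encodes PD-1, was below the filter, with 9 and 29 counts in CD45low and 0 and 8 in CD45high at D7 and D14. Cd274, which encodes PD-L1, was not called (0.67 ± 0.515, edgeR adjusted p = 0.313, and 1.24 ± 0.503, 0.0608). Havcr2, the inhibitory receptor TIM-3, was lower in CD45high by -2.45 ± 0.213 and -1.91 ± 0.231. Of 13 ligands of the NK receptors and receptors of CCL5, 3 were tested, of which 2 were higher and 1 lower at D7 and 1 was higher and 1 lower at D14, with a median of 1.09 and 0.45. Ccr1, a CCL5 receptor, was higher in CD45high (2.55 ± 0.513 and 3.11 ± 0.557). H2-T23, which encodes the CD94 ligand Qa-1, was called higher at D7 (1.09 ± 0.424, edgeR adjusted p = 0.0442) and not in recovered reads (0.89 ± 0.613, 0.251). The NKG2D ligands Raet1a to Raet1e and Ulbp1 had 0 recovered reads in all groups, and H60b and H60c had at most 8 in a group.

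Summed defining markers of T cells, NK cells and dendritic cells were higher in every CD45high library than in every CD45low library, and those of B cells overlapped. In recovered reads the 10 defining T cell markers, 4 of which are among the genes described here, summed to 2.79 to 11.7 RPM in CD45low, to 29.0 to 202.3 in CD45high at D7 and to 186.9 to 232.4 at D14. Of the 8 defining NK markers, all but Klrd1 were at 0 in CD45low, and 7 of the 8 were above 0 in CD45high, where they summed to 22.2 to 38.6 RPM at D7 and 25.8 to 49.4 at D14. The 4 defining B cell markers summed to 25.04 to 44.4 RPM in CD45low and 12.7 to 47.1 in CD45high, with Ms4a1 at 0 in all 4 groups. The 4 dendritic cell markers summed to 3.72 to 12.2 RPM in CD45low and 16.97 to 43.4 in CD45high. A longer list of 12 dendritic cell genes was mixed, with 5 tested in counts. Of these, 2 were higher and 2 lower in CD45high at D7, and 2 higher and 1 lower at D14. The median log2 fold change was -0.13 and 0.27.

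**Figure D4:**
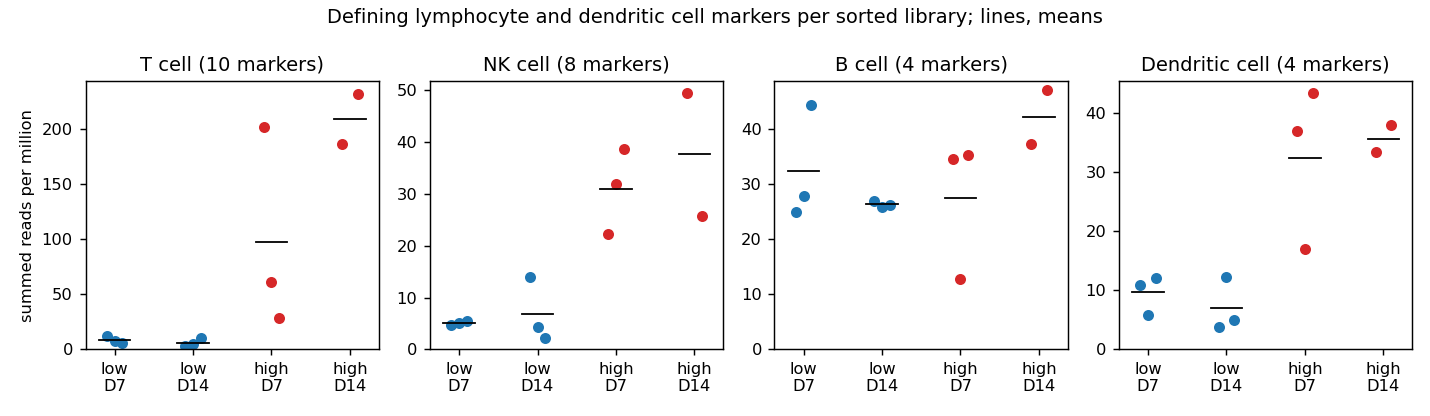
Summed RPM, in recovered reads, of the defining markers of 4 cell types in each sorted library (points; blue CD45low, red CD45high; lines are means). T and NK cell sums are higher in every CD45high library than in every CD45low library, whereas the B cell sums overlap.

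The most abundant markers in CD45high were those of neutrophils and monocytes. The 4 neutrophil markers summed to 12314 to 14074.5 RPM at D7 and 7761.6 to 9116.8 at D14, and the 4 monocyte markers to 3360.2 to 3950.3 over both, against 287.6 to 3899.1 and 30.2 to 206.0 in CD45low. The 5 microglia markers summed to 489.0 to 3054.7 RPM in CD45high and 5063.6 to 7308.1 in CD45low. Mature NK cells of mice carry CD11b and most resting T cells do not. What part such cells in the gate had in the levels of the 10 genes was not tested.

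The genes with the pattern most like the mean of the 5 tested genes over the 11 sorted libraries were Itga4, Alcam, Gpr132, S1pr5, Tmem51, Cdc42ep2, Runx3, Cd47, Ttc39c and Pira11, with Pearson r from 0.993 for Itga4 down to 0.985 for Pira11. Itga4, an integrin chain of leukocytes, stood at 19.3 ± 2.70 and 22.9 ± 5.89 CPM in CD45low and at 271.7 ± 30.7 and 401.8 ± 71.2 CPM in CD45high. S1pr5, a sphingosine phosphate receptor that NK cells use to leave tissues, had 0 and 1 counts in CD45low and 38 and 63 in CD45high. These 10 were named for having the highest r of 9053 genes, in libraries that share the gates and their depth. An r over 0.9 was reached by 900 genes, or 9.94%, and an r over 0.95 by 316, or 3.49%.

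In whole choroid plexus the comparison asked whether anti-PD-1 changed the tissue. None of the 10 genes passed the filter there, so none was tested beside the 9513 genes that were, of which edgeR called 0.0% in each of the 3 comparisons (442 at an unadjusted p under 0.05 for anti-PD-1 against IgG, 368 against untreated, and 471 for IgG against untreated). DESeq2 called 3, 5 and 6 genes. Cd3d and Gzma had 0 counts in all 14 libraries. Cd3e and Cd3g had 1 count each, Klrd1 3, Cd8a 6, Nkg7 10, Klrk1 14, Gzmb 17 and Ccl5 83. What size of change with treatment could be detected at this depth was not assessed. The lack of a test in the fit does not show that there was no change.

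Ccl5 had 4, 3, 0, 8 and 20 counts in the anti-PD-1 libraries, 6, 3, 2, 5 and 5 with IgG, and 5, 7, 3 and 12 in untreated mice. The groups overlapped, at 5.396 ± 6.13, 3.50 ± 1.82 and 5.96 ± 3.46 CPM. The exact permutation test of the difference gave two-sided p = 0.706 for anti-PD-1 against IgG and 0.873 against untreated, and 0.254 for IgG against untreated (adjusted over the 3 comparisons, 0.873, 0.873 and 0.762). The difference of anti-PD-1 from IgG was 1.89 CPM with anti-PD-1 replicate 5 and -0.73 CPM without it. The sample titles carry a letter, M or F: among M libraries the counts were 3 to 4, 3 to 6 and 5 to 12 in the 3 groups, and among F libraries 0 to 20, 2 to 5 and, in a single untreated library, 3. The titles also end in a number whose meaning the labels do not give, and which is spread unevenly over the groups: 14, 14, 10, 10 and 6 for anti-PD-1, 14, 14, 10, 7 and 6 for IgG, and 14, 14, 8 and 6 for untreated. Anti-PD-1 replicate 5 is the only anti-PD-1 library with a 6, and the libraries with a 6 had 20 Ccl5 counts with anti-PD-1, 5 with IgG and 12 untreated. Among libraries with a 14 the counts were 4 and 3, 6 and 3, and 5 and 7. With 1 or 2 libraries per group at a number, no test was made within it.

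**Figure D5:**
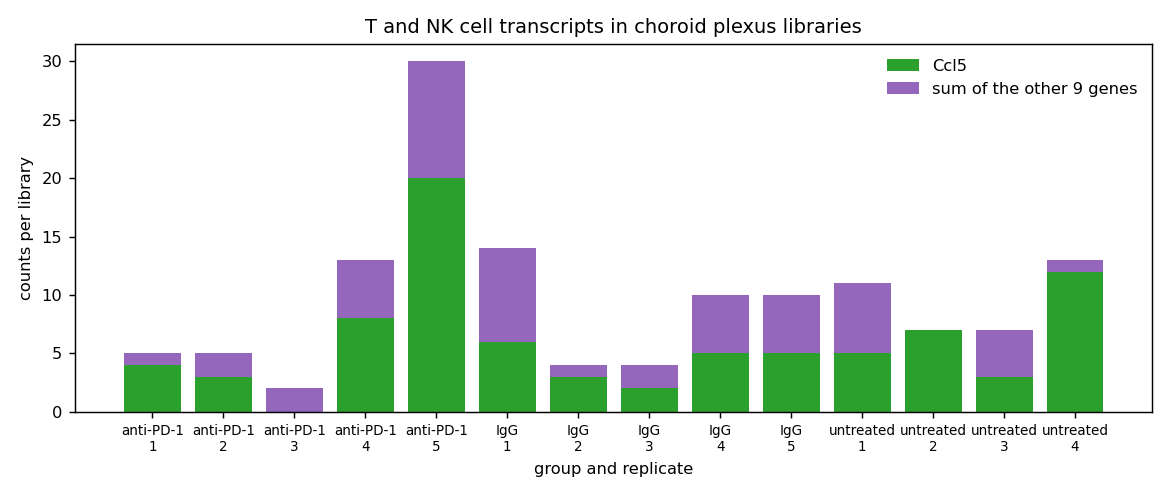
Counts of Ccl5 (green) and of the other 9 genes together (purple) in each of the 14 choroid plexus libraries, by group and replicate. Anti-PD-1 replicate 5 has 30 counts in all, of which 20 are Ccl5, and the other 13 libraries have 2 to 14.

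Anti-PD-1 replicate 5 held 30 of the 55 counts that the 5 anti-PD-1 libraries had over the 10 genes. Besides Ccl5 these were 4 of Nkg7, 2 of Cd8a, 2 of Klrd1 and 1 each of Cd3g and Gzmb. Summed over the 10 genes, the groups stood at 8.42 ± 8.89 CPM with anti-PD-1, 7.05 ± 4.74 with IgG and 8.51 ± 3.29 untreated.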

How the data were processed

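Libraries were made by 3′-end mRNA sequencing, which reads transcripts from their 3′ ends, per the labels' protocols. Bowtie2, HOMER and the build mm9 are named, per the submitters' processing notes, without versions. The authors deposited a table of raw counts per gene for each tissue, and a table of signal per transcript scaled per library. The scaled signal held whole reads times 1 factor per library, and 100% of the values came out whole within 0.05 reads. These reads were used as an alternative to the counts. All genes of a tissue were fitted together with edgeR 4.0.16 in R 4.3.3 (quasi-likelihood test, TMM factors, default filter by group, adjustment by Benjamini-Hochberg, called at an adjusted p under 0.05), with the letter of the titles as a covariate in the choroid plexus. A log2 fold change is followed by a standard error and a level by its SD. That standard error is the absolute log2 fold change over the square root of the test's F statistic. It therefore restates the test and is no separate measure of spread. Ratios of summed counts have exact 95% intervals, and a group at 0 was set to 3 counts. No molecular identifiers are described, so intervals and limits cover counting error only. Alternatives were the recovered reads, DESeq2 1.42.0, RLE size factors, no filter, a replicate block, the compared groups alone, M or F libraries alone and leaving out each library; those added after seeing the data were leaving out libraries in the fit of reads and the permutation test of Ccl5. The test was also run on simulated data whose genes, apart from those changed on purpose, had the same mean in all groups. Gate differences as large as those called for the 10 genes were not simulated, and the outcome is not reported here. Genes named were the 10, their receptor partners and up to 3 others per list of lowest p among called genes, the 10 of highest likeness (Pearson r of log2 CPM, prior count 2) and gate markers; Il7r was named after its value was seen. The 10 genes and the gene lists were chosen with earlier results of these data known. Some items of the gene lists are not reported here.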

Additional observations from a re-analysis of the deposited data

Results flagged for a closer look

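In 22 sets of values (a gene or the sum of the 10 genes in 1 choroid plexus group of 4 or 5 libraries), 10 had a library far from the others of its group by Dixon's criterion, which chance gives in about 1 of 20 sets where values are continuous. All but 2 of them are libraries with 1 or 2 counts in a group that is otherwise at 0. Anti-PD-1 replicate 5 stood apart in the sum of the 10 genes, at 23.8 CPM (30 counts) against 1.51 to 7.67 CPM in the other 4, and in Cd8a and Klrd1, each at 1.59 CPM (2 counts), and Cd3g at 0.794 CPM (1 count). Untreated replicate 1 stood apart in Gzmb, at 5.05 CPM (5 counts) against at most 0.815, and in Nkg7 at 1.01 CPM (1 count). Untreated replicate 3 stood apart in Klrk1 at 1.63 CPM (2 counts) and in Cd8a at 0.815 CPM (1 count), untreated replicate 4 in Cd3e at 0.892 CPM (1 count) and IgG replicate 1 in Klrd1 at 1.05 CPM (1 count).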

How the results depend on the processing

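At D7 the gate comparison called 3874 genes (3311 to 3901 leaving out a library each) and at D14 3212 (2178 to 3359). For D14 against D7 the counts of called genes were small and moved: in CD45low from 9 to 3 with recovered reads, 128 with no filter, 23 with DESeq2, 15 with a replicate block and 0 to 34 leaving out a library; in CD45high from 1 to 5 with reads, 0 with RLE size factors, 114 with no filter, 24 with DESeq2, 4 with the block, 13 in the compared groups alone and 0 to 13 leaving out a library; and for the change of the gate difference from 0 to 31 with no filter, 1 with the block by first title number and 0 leaving out any library. In the choroid plexus, where 0 genes were called, no filter gave 31, 13 and 27 (anti-PD-1 against IgG, against untreated, IgG against untreated), DESeq2 3, 5 and 6, the block 1 and 2 in the first and last, no title letter 1 in the second, M libraries alone 1 in the first and second, and leaving out a library 0 to 2, 0 and 0 to 1. The summed level of the 10 genes (CPM, or RPM for reads) moved from 18.1 to 22.1 in CD45low D7 and from 355.4 to 423.6 in CD45high D7 with recovered reads. The gate calls of Cd8a, Nkg7, Gzmb, Klrk1 and Ccl5 kept their direction in each alternative run that gave a test for the gene. Ccl5 had a test in 17 alternatives at each D label. Cd8a, Nkg7, Gzmb and Klrk1 at D7, and Gzmb at D14, had a test in 16. When a library was left out, 2 of the calls were lost, as given with Cd8a and Gzmb. Klrk1 from D7 to D14 in CD45high was called with no filter (1.94, edgeR adjusted p = 0.0339; over all alternatives 0.0339 to 0.8). Uncalled values that changed sign were Klrk1 from D7 to D14 in CD45low without CD45low D14 replicate 3 (0.064; -1.59 to 0.064 leaving out a library), in recovered reads from D7 to D14 in CD45high Klrd1 without CD45high D7 replicate 1 (-0.035) or 2 (-0.021; to 1.01) and Cd3g without replicate 3 (-0.10; to 0.94), and Ccl5 in choroid plexus without anti-PD-1 replicate 5 (-0.73); the cause was not tested. The labels state no pairs, so the main fit used none, although gates share first title numbers. Sorted libraries of the same first number correlated at 0.0139 to 0.0608 in their deviations from the group means (median 0.0448, other pairs -0.0063). Choroid plexus libraries of the same replicate number correlated at -0.0397 to 0.164 (median 0.0609, other pairs -0.0116). Deviations from the means of so few libraries measure pairing poorly. The block changed no call of the 10 genes. Depth limits all 10 genes: in the choroid plexus no library had more than 20 counts of any of them.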
